A study of Homo sapiens with 4 samples.

Results

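The unfolded protein response genes XBP1, HSPA5, DNAJB9, HERPUD1, ATF6 and EIF2AK3 were examined for ATF3 peaks in SW480 cells, an established colorectal cancer line. ATF3 is a stress-induced bZIP transcription factor, and its chromatin contacts were mapped by CUT&Tag, in which an antibody, here against ATF3, guides a transposase that cuts and tags nearby DNA. The groups were cells held in cystine-restricted medium (CR) and cells held in full medium (FM), each for 24 h and each with 2 libraries. No genotype, allele or agent other than the medium is given in the labels. Peak lists hold no expression values, so the line was not checked against markers. Libraries made without this antibody were not analysed here. The labels do not say whether the 2 libraries of a medium came from separate cultures. The p-values thus measure only spread between these libraries, which may be technical. In limma, which tested the changes, the spread at a region is drawn toward that of all tested regions. Peaks of the 4 lists that shared at least 1 bp were merged into regions, and a region was taken if it overlapped a gene or the 20 kb on either side of it (hg19). This gave 17 of 44826 regions, from windows that add up to 538.5 kb.

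The unfolded protein response is the reaction of the endoplasmic reticulum to misfolded protein. Sensors in its membrane, among them the kinase PERK (encoded by EIF2AK3) and the membrane-tethered factor ATF6, signal to the cytosol and nucleus, and the transcription factor XBP1 is made active by splicing of its mRNA by a further sensor, IRE1. Their target genes supply chaperones such as BiP (HSPA5) and its co-chaperone ERdj4 (DNAJB9), and parts of the machinery that exports and degrades misfolded protein, such as HERP (HERPUD1). PERK signalling is known to raise the translation of ATF4, and ATF3 is a known target downstream of it.

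All 6 promoters had an entry in RefSeq (GRCh38.p14), 250 bases before to 50 after the gene start, and those of 4 members are shown. HSPA5, HERPUD1 and XBP1 hold an ER stress response element and had an ATF3 region over the start, while the ATF6 start had none. EIF2AK3 and DNAJB9, not shown, also had a region over the start but hold no such element. The choice is thus no evidence of a link between element and peak. The capitals mark matches on either strand. The motifs were the cAMP response element TGACGTCA and its shorter form TGACGT, which it contains, and TTGCATCA, the core of a C/EBP-ATF site. TGANTCA, with any base at N, was a looser, AP-1-like form, and its match in HSPA5 was TGAATCA. Also marked were the ER stress response element (ERSE), a CCAAT box followed after 9 bases by CCACG, and ERSE-II, spelled ATTGGNCCACG.
HSPA5, chr9:125241294-125241593 (minus strand): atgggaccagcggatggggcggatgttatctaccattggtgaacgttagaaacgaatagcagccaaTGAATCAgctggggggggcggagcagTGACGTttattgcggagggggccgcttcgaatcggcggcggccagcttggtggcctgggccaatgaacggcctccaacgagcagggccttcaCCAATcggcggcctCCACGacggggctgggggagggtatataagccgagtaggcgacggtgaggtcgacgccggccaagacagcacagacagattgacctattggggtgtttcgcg
HERPUD1, chr16:56931892-56932191 (plus strand): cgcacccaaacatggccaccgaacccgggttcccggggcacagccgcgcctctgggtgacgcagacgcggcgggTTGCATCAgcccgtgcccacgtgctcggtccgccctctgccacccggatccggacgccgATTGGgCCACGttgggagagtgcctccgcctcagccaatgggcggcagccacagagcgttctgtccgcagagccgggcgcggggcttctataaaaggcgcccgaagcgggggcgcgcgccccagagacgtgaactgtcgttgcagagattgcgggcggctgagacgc
XBP1, chr22:28800520-28800819 (minus strand): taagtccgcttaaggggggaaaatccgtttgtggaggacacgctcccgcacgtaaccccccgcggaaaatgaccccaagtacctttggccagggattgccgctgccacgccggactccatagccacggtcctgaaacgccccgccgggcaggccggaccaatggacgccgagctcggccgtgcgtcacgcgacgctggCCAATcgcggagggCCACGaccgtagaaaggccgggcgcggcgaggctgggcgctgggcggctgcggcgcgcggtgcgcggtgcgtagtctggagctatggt
ATF6, chr1:161766070-161766369 (plus strand): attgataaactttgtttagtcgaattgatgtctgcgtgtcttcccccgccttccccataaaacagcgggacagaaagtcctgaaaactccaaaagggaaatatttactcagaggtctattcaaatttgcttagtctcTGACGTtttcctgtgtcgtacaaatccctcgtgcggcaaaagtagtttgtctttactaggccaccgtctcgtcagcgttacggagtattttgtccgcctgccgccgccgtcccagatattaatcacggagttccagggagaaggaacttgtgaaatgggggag

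An ERSE was found in the HSPA5 and XBP1 windows, against 27 of all 35116 promoter windows in the table (0.0769%). ERSE-II was found in HERPUD1 (0.0541% of all windows), as was TTGCATCA (0.866%). ERSE-II was added to the search after the data were seen. The genes were chosen for their part in this response, so the ERSE and ERSE-II shares are no test of enrichment. TGACGT occurred in HSPA5 and ATF6 (7.98% of all windows) and TGANTCA in HSPA5 (7.71%), while the full element TGACGTCA (1.85%) was in none of the 6. The EIF2AK3 and DNAJB9 windows held none of these motifs. The single boxes are common, with CCAAT in 34.6% and CCACG in 38.1% of all windows. The peaks are positioned on hg19 and these sequences on GRCh38.p14, so no motif was placed under a summit. A match describes letters in a window and is not evidence of a bound site.

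ATF3 peaks lay over the starts of 5 of the 6 genes, namely EIF2AK3, XBP1, HSPA5, DNAJB9 and HERPUD1. At EIF2AK3, HSPA5 and HERPUD1 a peak covered the start in every library of both media. At XBP1 the merged region was in every library, but in FM library 1 its peak did not reach the start, and in CR library 2 only a separate, lower peak did. At DNAJB9 no peak was listed in FM library 2. ATF6 had no peak over its start or anywhere in its 197.8 kb in any library. Of the 17 regions, 8 were in all 4 libraries (47.1%, against 23.0% of all regions), 2 were in 3 libraries, 1 was in both CR libraries alone and 6 were in a single library (35.3%, against 46.4% of all regions). The windows held 31.6 regions per Mb, and the chromosomes as a whole 15.2 per Mb. Windows were drawn around genes, and all regions include those far from genes, so these shares are a description of unlike territory.

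**Figure D1:**
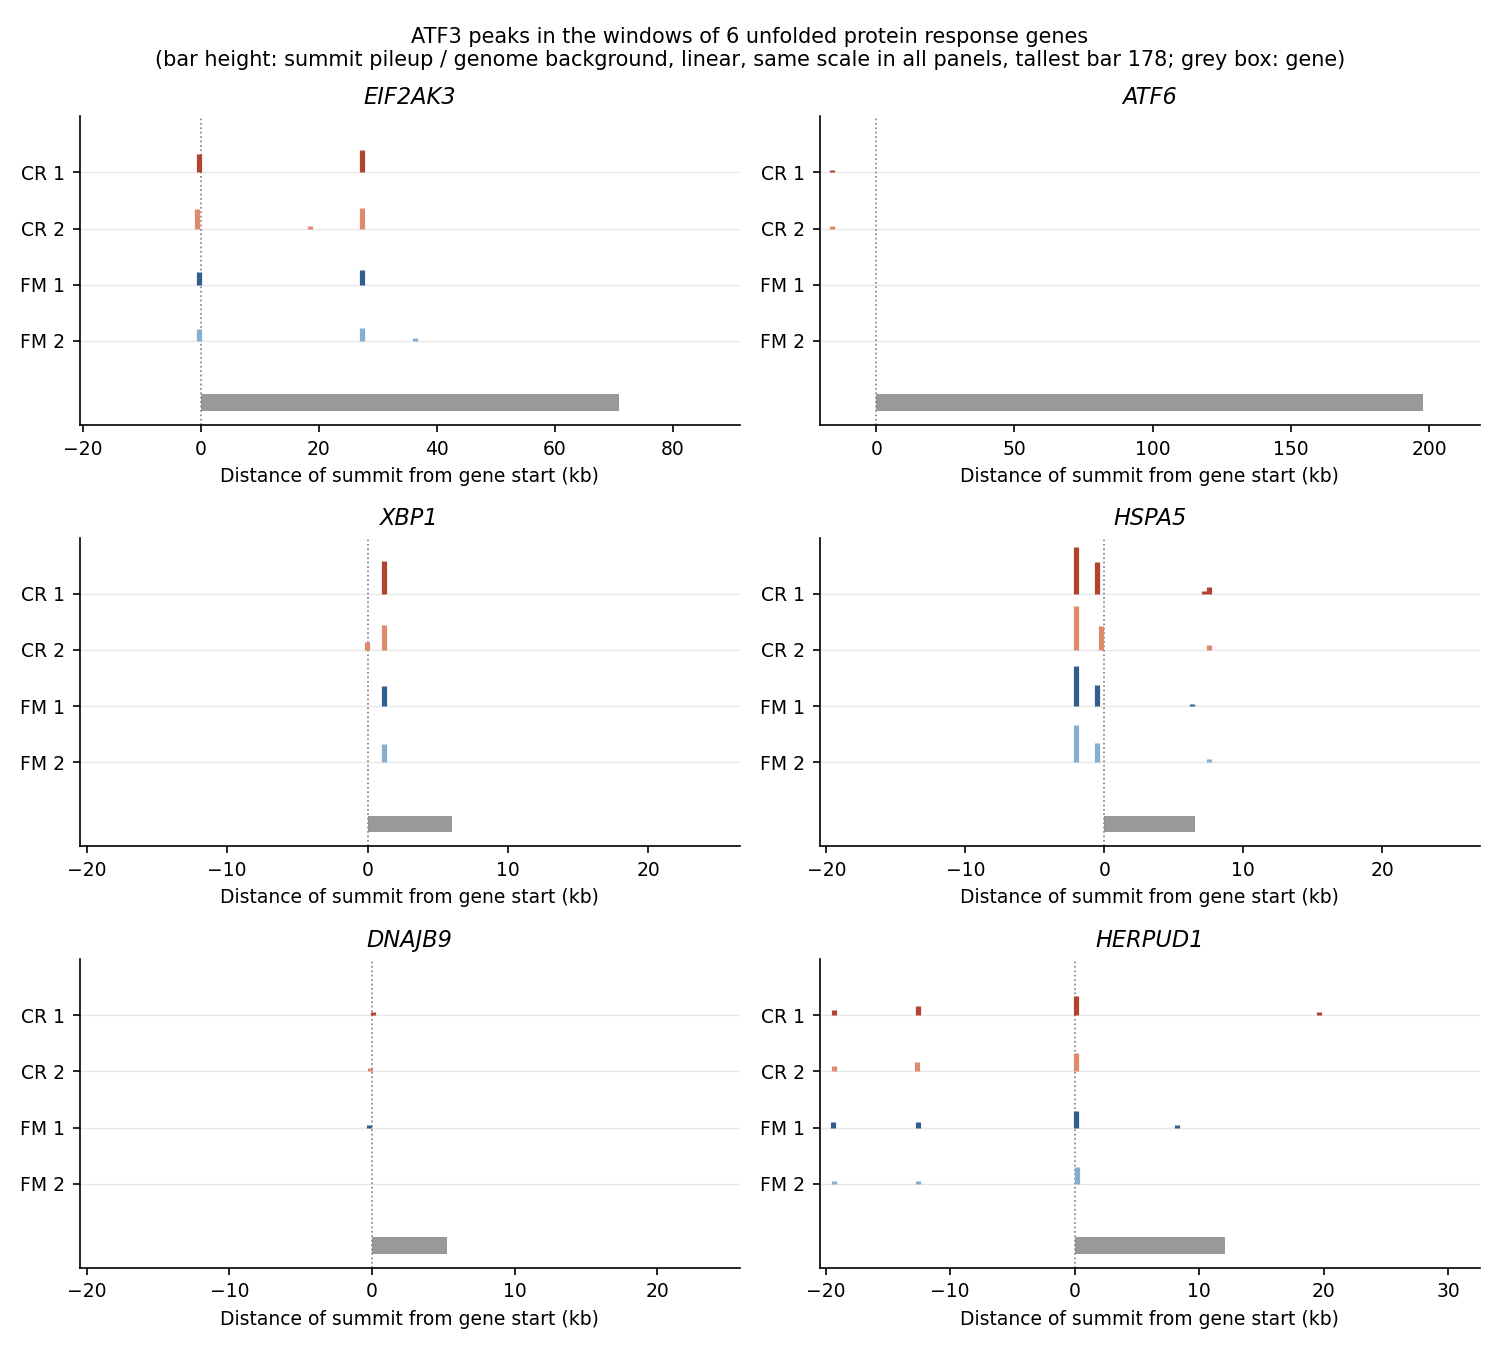
ATF3 summits in the 6 gene windows, by distance from the gene start in kb along the direction of transcription, in rows for CR 1, CR 2, FM 1 and FM 2. Bar height is the summit pileup over the genome background on a linear scale shared by the panels; the grey box is the gene. The tallest bars stand 2.06 kb before the HSPA5 start, and the ATF6 panel holds a peak in the CR rows alone.

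Heights are given as the summit pileup, the number of tags stacked at the highest point of a peak, divided by the genome background, the pileup expected if tags were spread evenly over the genome. Neither is printed in the lists, and both were worked out from the fold enrichment and −log10 p that the authors deposited for each peak. The genome background, which is proportional to sequencing depth, was 1.30 and 1.08 tags in CR libraries 1 and 2, and 1.11 and 1.32 tags in FM libraries 1 and 2. The lists held 33838 and 29607 peaks on chromosomes 1 to 22 and X in the CR libraries and 17447 and 19132 in the FM libraries.

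EIF2AK3, which encodes the sensor kinase PERK, had 4 regions on chromosome 2. The region over its start (88926349 to 88927930) had heights of 67.8 and 73.8 in the CR libraries and 49.7 and 43.2 in the FM libraries. Both CR libraries were above both FM libraries. The means were 70.8 ± 4.2 in CR and 46.5 ± 4.6 in FM (SD, n = 2 each), a log2 change of 0.61 ± 0.23 (SE), and the adjusted p of 0.0506 in limma, with Benjamini-Hochberg adjustment over the 10331 regions in all 4 libraries, was just outside the threshold of 0.05. Among peaks with a −log10 q of 5 or more it was inside (0.029), and with each library centred on its median the log2 change was 0.041. Its summits lay 255 to 584 bp before the start.

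Inside EIF2AK3, 27.3 kb after the start, lay a second region (88899224 to 88900189). Its heights were 85.5 and 77.5 in the CR libraries and 56.0 and 48.6 in the FM libraries, and the media did not overlap. The means, 81.5 ± 5.7 in CR and 52.3 ± 5.3 in FM (SD, n = 2 each), were somewhat above those of the start. It rose under cystine restriction, with a log2 change of 0.64 ± 0.23 (SE) and an adjusted p of 0.042 in limma. The summits of the 4 libraries were within 48 bp of each other. This call was near the threshold: it was lost without CR replicate 1 (adjusted p = 0.23), without CR replicate 2 (0.11), without FM replicate 2 (0.17), and, at 0.054, when all peaks of a region were averaged. Averaging left its log2 change as it was, since each library had 1 peak here. With each library centred on its median the log2 change was 0.074 (adjusted p = 0.88), and on the authors' fold it was 0.38 (0.21). The other 2 regions inside the gene were in a single library each, CR library 2 with a height of 10.1 and FM library 2 with 9.10.

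ATF6, the membrane-tethered sensor and transcription factor on chromosome 1, had 1 region in its window, 15.8 kb before the start (161719567 to 161720192). It was listed in the CR libraries with heights of 9.25 and 8.30 and in neither FM library, and so was the single region gained under cystine restriction among the 17, against 12.7% of all regions. None of the 17 was lost, that is, listed in both FM libraries and in no CR library, against 0.386% of all regions. The summits of the gained region were 12 and 9 tags high, with exact 95% Poisson intervals of 6.20 to 21.0 and 4.12 to 17.1 tags, which cover counting error only. RefSeq (GRCh38.p14) lists ATF6-DT, DUSP12 and OLFML2B within 20 kb of ATF6, and the gained region cannot be assigned to a gene from these lists. The lowest peaks listed in the FM libraries had 7 tags, or 6.33 and 5.31 times the background. A difference between media of the size of this region was therefore close to what the lists can show, and absence from a list says that the caller's criteria were not met, not that the height was 0.

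XBP1, the transcription factor activated by mRNA splicing, had a single region on chromosome 22 (29194834 to 29196687), 1854 bp wide, that reached from the gene start into the gene. Its heights were 122.5 and 93.2 in the CR libraries and 74.1 and 69.8 in the FM libraries. CR library 1 stood apart from the other three, and both CR libraries were above both FM libraries. The means were 107.8 ± 20.7 in CR and 72.0 ± 3.1 in FM (SD, n = 2 each), a log2 change of 0.57 ± 0.24 (SE), with an adjusted p of 0.071 in limma, outside the threshold. The log2 change was 0.37 without CR replicate 1 (adjusted p = 0.43), and 0.15 when the start peak of CR library 2, described next, was averaged in (0.74), while among peaks with a −log10 q of 5 or more the region was called (0.043). The summits were not at the start but 1.15 to 1.17 kb inside the gene, within 24 bp of each other. CR library 2 also listed a separate peak with a summit 22 bp before the start and a height of 28.6. Its main peak, which gave the height of 93.2, ended 341 bp short of the start, and the peak of FM library 1 ended 208 bp short. RefSeq (GRCh38.p14) lists CCDC117 within 20 kb of XBP1, and the region cannot be assigned to a gene from these lists.

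HSPA5, which encodes the chaperone BiP, carried the highest ATF3 peaks of the 6 windows. The region 2.06 kb before its start on chromosome 9 (128005222 to 128006453) had heights of 178.0 and 164.2 in the CR libraries and 150.9 and 140.3 in the FM libraries. Every one of these peaks was above the 99th percentile of −log10 p in its own list, at 99.4 to 99.5. The media did not overlap but differed little: 171.1 ± 9.7 in CR and 145.6 ± 7.5 in FM (SD, n = 2 each), a log2 change of 0.23 ± 0.23 (SE) and an adjusted p of 0.41 in limma. The pileups were 231 and 178 tags in the CR libraries (exact 95% Poisson intervals 202 to 263 and 153 to 206) and 167 and 185 tags in the FM libraries (143 to 194 and 159 to 214). Before scaling by the background, the tag numbers of CR library 2 lay between those of the FM libraries.

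The summit of this upstream HSPA5 peak was at the same base, 128005729, in all 4 libraries. This was so at 32 of the 10331 regions in all 4 libraries (0.310%), where the median range of the summits was 125 bp. The coincidence was singled out after its values were seen. At the other 7 regions of these genes that were in every library, the summits ranged over 24 to 329 bp.

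The second HSPA5 region, over the start itself (128003582 to 128004503), had heights of 121.0 and 88.6 in the CR libraries and 80.4 and 72.8 in the FM libraries. CR library 1 was again the highest, and the media did not overlap. The log2 change was 0.44 ± 0.24 (SE), with an adjusted p of 0.16 in limma, and it was 0.21 without CR replicate 1 and 0.66 without CR replicate 2. Of the remaining 3 regions, a narrow one 7.41 kb after the start, beyond the end of the gene, was listed in 3 libraries, with heights of 24.7 and 17.5 in CR and 13.7 in FM library 2. The others were in CR library 1 (10.8) and in FM library 1 (9.04) alone. RefSeq (GRCh38.p14) lists HSPA5-DT and RABEPK within 20 kb of HSPA5, and EIF2AK3-DT and EIF2AK3-AS1 within 20 kb of EIF2AK3, and a peak near these starts cannot be assigned to 1 gene of its pair.

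DNAJB9, which encodes the co-chaperone ERdj4, had 1 region on chromosome 7, over its start (108209755 to 108210491). Its heights were 13.9 and 11.1 in the CR libraries and 8.13 in FM library 1, with no peak listed in FM library 2. The peak was far lower than those over the starts of EIF2AK3, HSPA5 and HERPUD1, where the lowest height in any library was 43.2. Because a library had no value, no change was fitted. The summits stood on 18 and 12 tags in CR and 9 tags in FM library 1, and the lowest peak listed in FM library 2 had 7 tags. RefSeq (GRCh38.p14) lists THAP5 as the neighbour of DNAJB9 within 20 kb, and a peak at the start cannot be assigned to either gene from these lists.

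HERPUD1, which encodes a membrane protein of endoplasmic reticulum-associated degradation, had 5 regions on chromosome 16, and 3 of them were in all 4 libraries. The region over its start (56965163 to 56966506) was high and nearly level between media, at 72.4 and 71.0 in the CR libraries and 63.3 and 61.4 in the FM libraries. The media did not overlap, with means of 71.7 ± 0.99 in CR and 62.4 ± 1.3 in FM (SD, n = 2 each). The log2 change was 0.20 ± 0.23 (SE), with an adjusted p of 0.47 in limma. This SE draws in part on the spread at all tested regions, and is wide beside the close values of the libraries here. The summits lay 124 to 164 bp after the start.

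The region 12.6 kb before the HERPUD1 start (56952575 to 56953497) changed most among the 8 regions with a peak in every library. Its heights were 33.9 and 34.1 in the CR libraries and 22.6 and 9.86 in the FM libraries. The CR libraries were alike, while the FM libraries differed from each other by 2.29 times. It rose under cystine restriction, with a log2 change of 1.19 ± 0.32 (SE), a 2.28-fold difference, and an adjusted p of 0.014 in limma, which placed it at percentile 94.5 of the changes of all 10331 regions. Its peaks were 854 and 653 bp wide in the CR libraries and 171 and 150 bp wide in the FM libraries. Without FM replicate 2, the library with the lowest value, the log2 change was 0.59 and the adjusted p 0.13, and without FM replicate 1 the log2 change was 1.79. The call was also lost with each library centred on its median (log2 change 0.62, adjusted p = 0.27) and on the authors' fold (0.66, adjusted p = 0.19).

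The third HERPUD1 region, 19.4 kb before the start, was the single one of the 8 where the media overlapped. Its heights were 20.03 and 20.3 in the CR libraries and 20.8 and 10.6 in the FM libraries, a log2 change of 0.44 ± 0.29 (SE) with an adjusted p of 0.22 in limma. The FM libraries disagreed, and the log2 change was −0.04 without FM library 2 and 0.92 without FM library 1. Single-library peaks were listed inside the gene in FM library 1 (9.04) and after its end in CR library 1 (13.1). RefSeq (GRCh38.p14) places SLC12A3 and CETP within 20 kb of HERPUD1, and the distal regions cannot be assigned to a gene from these lists.

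**Figure D2:**
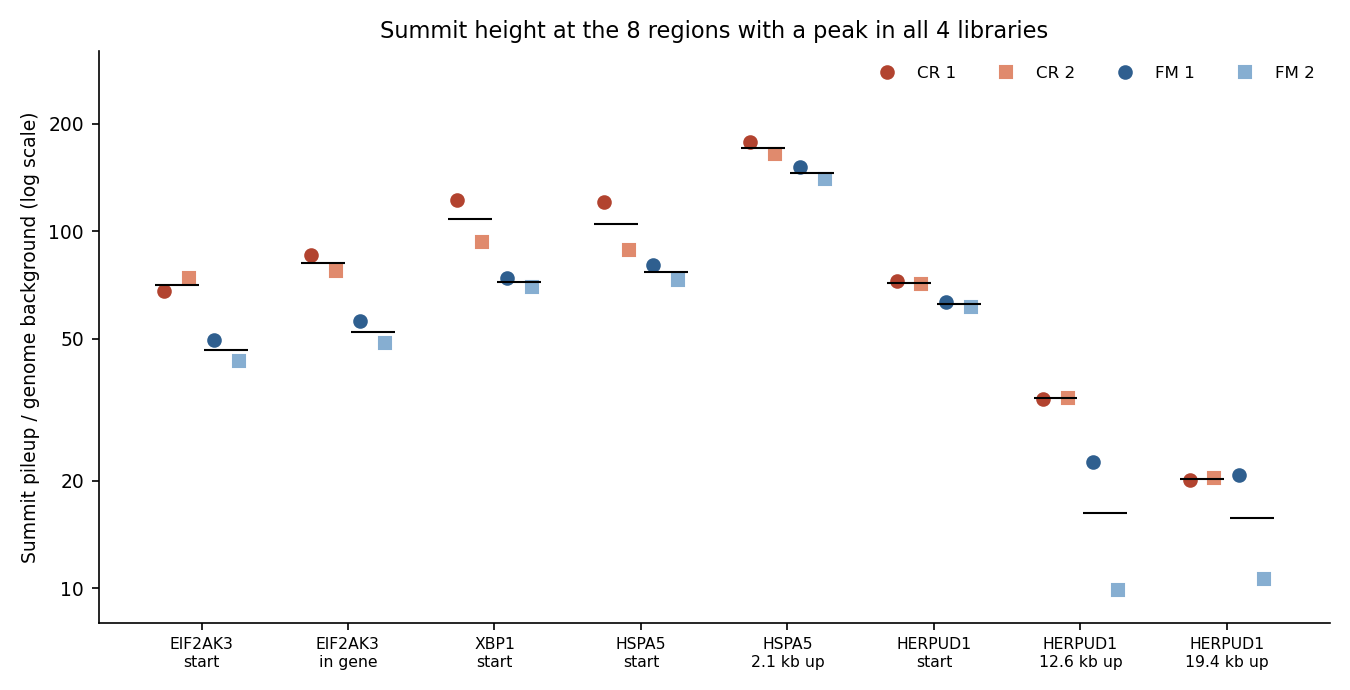
Summit pileup over genome background (log scale) at the 8 regions of these genes with a peak in every library, for CR libraries 1 and 2 (left pair) and FM libraries 1 and 2 (right pair), with a line at the mean of each medium. In 7 of the 8 regions both CR points lie above both FM points, and the exception is the HERPUD1 region 19.4 kb before the start.

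Across the 8 regions in all 4 libraries, both CR heights were above both FM heights at 7, against 72.8% of all 10331 such regions. The limma test called 2 of the 8 higher, against 37.2% of all, and none lower, against 0.155% of all. All 8 changes were above 0, from 0.20 to 1.19, with a median of 0.51, and the median over all 10331 regions was 0.53 (quartiles 0.29 and 0.78). With each library centred on its own median, which takes out a difference of 0.57 between the media in those medians, the changes ran from −0.37 at the HERPUD1 start to 0.62 at the HERPUD1 region 12.6 kb before it. None of the 8 then passed the limma test, against 177 higher and 124 lower of all 10331 regions, and the lowest adjusted p was 0.27. On that scale 4 of the 8, the HSPA5 pair and the HERPUD1 regions at the start and 19.4 kb before it, were below 0. On the scale of the genome background, 4 of the 8 had an unadjusted p under 0.05 in limma, all higher in CR, against 50.8% of all 10331 regions. A limma fit with a trended, robust prior variance, added after the data were seen, called 5 of the 8 higher and none lower, against 43.2% higher and 0.397% lower of all.

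**Figure D3:**
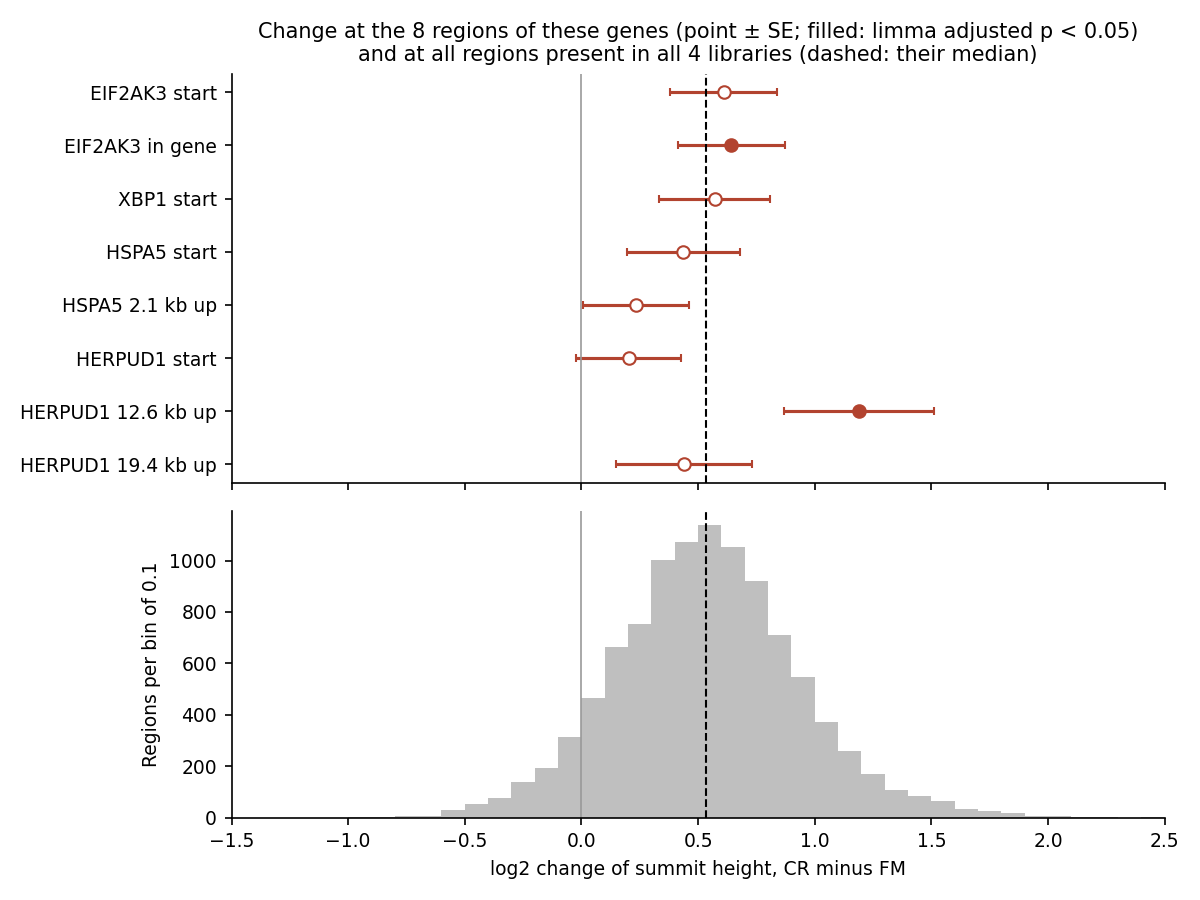
Top, log2 change of summit height, CR minus FM, at the 8 regions of these genes, as the limma estimate ± SE; filled points passed an adjusted p of 0.05. Bottom, the same quantity at all 10331 regions in every library, with their median of 0.53 as a dashed line; 5 of the 8 points lie between 0.43 and 0.65, and HERPUD1 12.6 kb before its start lies at 1.19.

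By level, the order of the 8 regions was the same at the top and bottom in both media. The upstream HSPA5 region was the highest and the HERPUD1 regions 12.6 and 19.4 kb before the start the lowest in each of the 4 libraries. The HERPUD1 region 12.6 kb away was above the one 19.4 kb away in both CR libraries and in FM library 1, but not in FM library 2, at 9.86 against 10.6. The XBP1 region and the HSPA5 start had means of 107.8 ± 20.7 and 104.8 ± 22.9 in CR and 72.0 ± 3.1 and 76.6 ± 5.4 in FM (SD, n = 2 each). Within libraries, XBP1 was above the HSPA5 start in both CR libraries (122.5 against 121.0 and 93.2 against 88.6). It was below in both FM libraries (74.1 against 80.4 and 69.8 against 72.8), and this turn was not tested. In CR the HERPUD1 start (71.7 ± 0.99) was above the EIF2AK3 start (70.8 ± 4.2) in library 1 and below it in library 2. In FM the HERPUD1 start, at 62.4 ± 1.3, was above the EIF2AK3 start, at 46.5 ± 4.6, in both libraries.

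The lists imply a local background for each peak, the pileup that the peak caller set against it. The stretch over which the caller took it is not given and may contain the peak itself, so it is no separate measure of signal outside peaks. At all 8 regions the local background over the genome background was above both FM libraries in both CR libraries, against 72.5% of all 10331 regions. It was 17.4 and 15.3 in CR and 13.1 and 13.3 in FM at the upstream HSPA5 region, 8.73 and 7.42 in CR and 5.67 and 5.71 in FM at XBP1, and 6.32 and 6.61 in CR and 4.16 and 3.41 in FM at the EIF2AK3 start. The log2 changes of the local background ran from 0.18 at the HERPUD1 start to 0.83 at the HERPUD1 region 19.4 kb before it, with a median of 0.41 against 0.37 over all regions. The authors' fold enrichment divides by this local background, and on its log2 scale the median change of the 8 regions was 0.08. None was called by limma, against 5 higher and 0 lower calls over all 10331 regions. At the upstream HSPA5 region, for example, the authors' fold was 9.85 and 10.2 in CR and 10.8 and 10.04 in FM. The 2 HSPA5 regions are neighbours, and their local backgrounds may count some of the same tags. The local background of the upstream one was matched or exceeded at 1.42% of the 10331 regions, whose median was 2.55. Both CR peaks were wider than both FM peaks at 4 of the 8 regions, against 50.6% of all.

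**Figure D4:**
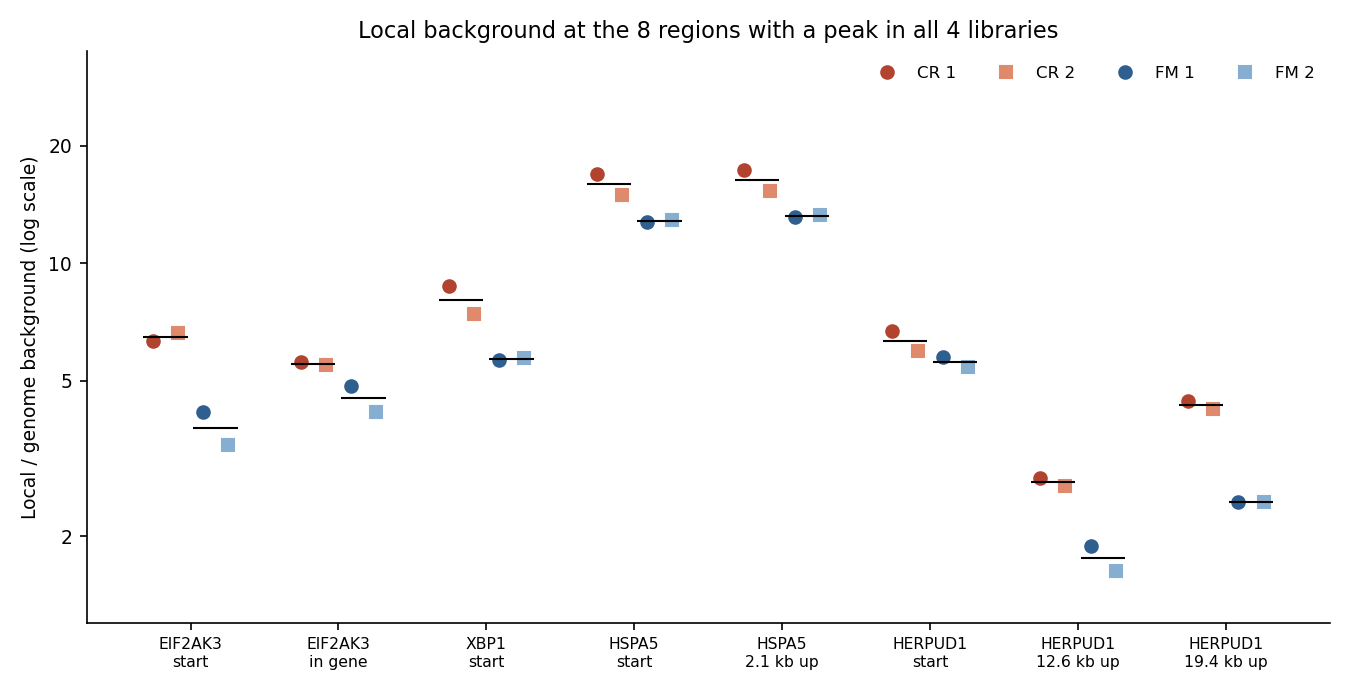
Local background over genome background (log scale) at the 8 regions with a peak in every library, CR libraries 1 and 2 as the left pair and FM libraries 1 and 2 as the right pair, with a line at the mean of each medium. Both CR points lie above both FM points at each region, and the HSPA5 pair, between 12.7 and 17.4, is the highest.

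In all, the 6 windows held 13 and 13 peaks in the CR libraries and 11 and 10 in the FM libraries, means of 13.0 ± 0 and 10.5 ± 0.71 (SD, n = 2 each). The ratio of 1.24 was smaller than the 1.73 of all peaks on the same chromosomes, and the difference between these ratios was not tested. The window ratio varied with the setting. It was 1.44 among peaks with a −log10 q of 5 or more, and 1.00 with equal numbers of top peaks. With windows of 5 and 50 kb it was 1.12 and 1.39. The two-sided exact permutation p for the window counts was 0.33, the smallest that 2 libraries against 2 allow. The 6 regions in a single library were 3 from CR and 3 from FM libraries, with heights of 9.04 to 13.1 on 10 to 17 tags and a −log10 q of 1.86 to 5.88. Just inside the limit of 20 kb lay the HERPUD1 region whose edge is 19.1 kb before the start. Just outside it, 401 bp further, was a region with heights of 30.1 and 24.0 in CR and 13.6 and 9.86 in FM. At the other end, 813 bp beyond the HERPUD1 window, the media overlapped, at 30.05 and 33.2 in CR and 23.5 and 34.1 in FM. A region 236 bp beyond the HSPA5 window was listed in CR library 1 (10.02) and FM library 2 (9.10). Another, 932 bp beyond the XBP1 window, was listed in CR library 2 alone (10.1).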

How the data were processed

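ATF3 CUT&Tag peaks of 4 SW480 libraries, 2 in each medium, were analysed. The submitters' processing notes name hg19, MACS2 2.2.7.1, BWA 0.7.17, fastp 0.19.7 and bcl2fastq 2.17, without the caller's options. Each peak in the deposited lists has a score (10 times its −log10 q, cut to a whole number), a fold (the ratio of summit to local pileup, 1 added to each), and the −log10 of its p and q. Replicates were called separately by the authors.

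The fold is (pileup + 1)/(background + 1) and the p is Poisson, so both terms were solved for; a whole pileup matched the −log10 p within 0.1% at every peak. The lowest background in a list was taken as its genome background. Regions on chromosomes 1 to 22 and X were merged on 1 bp, and bedtools 2.31.1 gave the same 44826. Log2(pileup/genome background) of the highest peak per region and library was compared, CR minus FM, at regions in every library with limma 3.58.1 (R 4.3.3), without a pseudocount or block, with Benjamini-Hochberg adjustment over 10331 regions. Pileup recovery and limma were tested on simulated data. Other steps ran in Python 3.11.15 (pandas 2.3.3, numpy 2.4.6, scipy 1.17.1).

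Members, lists and tests were chosen with earlier results of these data known. The 6 genes, every region in their windows, the region nearest each start and the highest one were named. The alternatives were median centring, averaging peaks, a −log10 q of at least 5, the authors' fold, a replicate block, leaving out each library, equal numbers of top peaks, a reciprocal overlap of 50%, and windows of 5 and 50 kb. Added after the data were seen were a trended limma prior, ERSE-II, and the local background, width and summit comparisons. Gene starts follow the window intervals, strands and promoters follow RefSeq (GRCh38.p14), and further genes of the response were not analysed here because no hg19 annotation was used. Intervals cover counting error only, since PCR copies are not independent molecules.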

Additional observations from a re-analysis of the deposited data

How the results depend on the processing

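The sign of the change depended on the scaling at some of the 8 regions. With each library centred on its median, the median change of the 8 regions was −0.063, none was called, and all regions had 177 higher and 124 lower calls in limma; the HERPUD1 start (−0.37) and 19.4 kb (−0.13) regions and the HSPA5 upstream (−0.34) and start (−0.13) regions fell below 0. On the authors' log2 fold the median was 0.079, none was called, and all regions had 5 higher and 0 lower calls (65 lower at an unadjusted p under 0.05); the EIF2AK3 start (−0.068), HERPUD1 19.4 kb (−0.24) and HSPA5 upstream (−0.057) regions were below 0. The fold divides by the local background. Averaging the peaks of a region left 1 of the 8 called (all regions 3383 higher, 14 lower), and a trended prior gave 5 (4462 higher, 41 lower). Leaving out 1 library, with the lone library of a medium assumed to vary like the others, gave 0 to 3 calls, a median of 0.41 to 0.66, and 1570 to 4768 higher and 5 to 18 lower calls over all regions. The HERPUD1 19.4 kb region was at −0.044 without FM replicate 2 and at 0.92 without FM replicate 1.

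Gained regions among these genes numbered 0 with equal numbers of top peaks (all regions 1840 gained, 752 lost; ratio of window peaks 1.00), 0 within 5 kb and 2 within 50 kb. With reciprocal overlap they were 2 gained and 1 lost (all regions 7927 gained, 1221 lost), as HERPUD1 12.6 kb counted as both. Leaving out 1 library gave 2 to 3 gained and 0 to 2 lost here, and 7670 to 15455 gained and 358 to 2812 lost over all regions, since fewer libraries are then required. Keeping peaks with a −log10 q from 5 upward, 4342 of all regions were gained and 85 lost, and the HERPUD1 regions 12.6 and 19.4 kb before the start gave no value; 3 of the other 6 were called, as were 3555 of all 7397 fitted as higher and 16 as lower. With the replicate block, 3719 of all regions were called higher, the same 2 of the 8 were called, and the window ratio was 1.24; same-numbered libraries did not deviate together (correlation 0.01), and 2 numbers are too few to pair them. Other causes, among them depth at the regions of 9 to 18 tags, were not tested.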
